A study of Homo sapiens with 2 samples.

Results

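Epithelial-mesenchymal transition (EMT), the switch of polarised, tightly joined epithelial cells to a motile mesenchymal state, is driven by a small set of transcription factors and opposed by another set. The 9 genes described here are 5 EMT inducers (SNAI1, SNAI2, TWIST1, ZEB1 and ZEB2) and 4 genes that maintain the epithelial state, the epithelial guardians (GRHL1, GRHL2, ESRP1 and ESRP2). They were chosen by name, and every probe set that the array's annotation assigns to exactly 1 gene symbol, equal to a listed gene, was taken. This gave 17 probe sets for 8 of the 9 genes, out of 41091 probe sets for 19775 genes. ESRP2 had no such probe set and was not analysed here.

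The samples were PLC8024 cells, a human hepatocellular carcinoma (HCC) line, of which the fraction lacking the surface marker CD133 had been isolated by flow cytometry. One culture of these CD133- cells was transduced with a lentivirus for miR-130b and the other with an empty lentiviral vector. One label of the miR-130b sample speaks of transfection instead. Total RNA of each was hybridised to 1 expression array, so neither condition has a replicate, no difference could be tested, and every difference below is one between 2 arrays. Fewer cells expressing a gene and less RNA per cell cannot be told apart in such bulk RNA.

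SNAI1 (Snail), SNAI2 (Slug), ZEB1 and ZEB2 encode zinc-finger proteins that bind E-box sequences and repress E-cadherin and other junction genes, and TWIST1 encodes a basic helix-loop-helix factor. GRHL1 and GRHL2 encode Grainyhead-like factors that activate junction genes, and ESRP1 and ESRP2 encode RNA-binding proteins that direct epithelial patterns of splicing. The ZEB factors and the microRNAs of the miR-200 family repress each other, and ZEB1 has been reported as a miR-130b target in endometrial cancer cells. The Snail and Twist proteins are also regulated through their stability, which an array of transcripts does not measure.

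The mature microRNA sequences show which of these regulators shares a seed with the overexpressed one. The sequences are from RefSeq (GRCh38.p14), written 5′ to 3′, with the seed, bases 2 to 8, in capitals. The first is the main mature arm of miR-130b, at chr22:21653354-21653375 on the + strand. The other 5 are the miR-200 family, which is known to target ZEB1 and ZEB2.
hsa-miR-130b-3p: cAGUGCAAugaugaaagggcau
hsa-miR-200b-3p: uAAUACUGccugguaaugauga
hsa-miR-200c-3p: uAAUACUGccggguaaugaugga
hsa-miR-429: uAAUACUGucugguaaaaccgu
hsa-miR-200a-3p: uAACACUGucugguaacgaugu
hsa-miR-141-3p: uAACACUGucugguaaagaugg
The seed of miR-130b-3p equals none of the 5 others. It has the same base at 3 of 7 positions as the seed shared by miR-200b, miR-200c and miR-429, and at 2 of 7 as the seed of miR-200a and miR-141. The level of each mature microRNA, and matches of the seed in the members' transcripts, were not analysed here.

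No EMT inducer and no epithelial guardian differed by 1.5-fold (0.58 on the log2 scale) between the arrays. Over the 17 probe sets the differences, given throughout on the log2 scale with the empty vector subtracted from miR-130b, ran from -0.27 to 0.33 with a median of 0. Of the 17, 8 were lower in the miR-130b array, 6 were higher and 3 had exactly the same deposited value in both. Among all 41091 probe sets with 1 symbol, 1.83% were at least 1.5-fold lower and 0.241% at least 1.5-fold higher. With 17 probe sets at these shares, a count of 0 lies near the background. Exactly equal values stood in both arrays for 3.92% of all these probe sets.

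**Figure D1:**
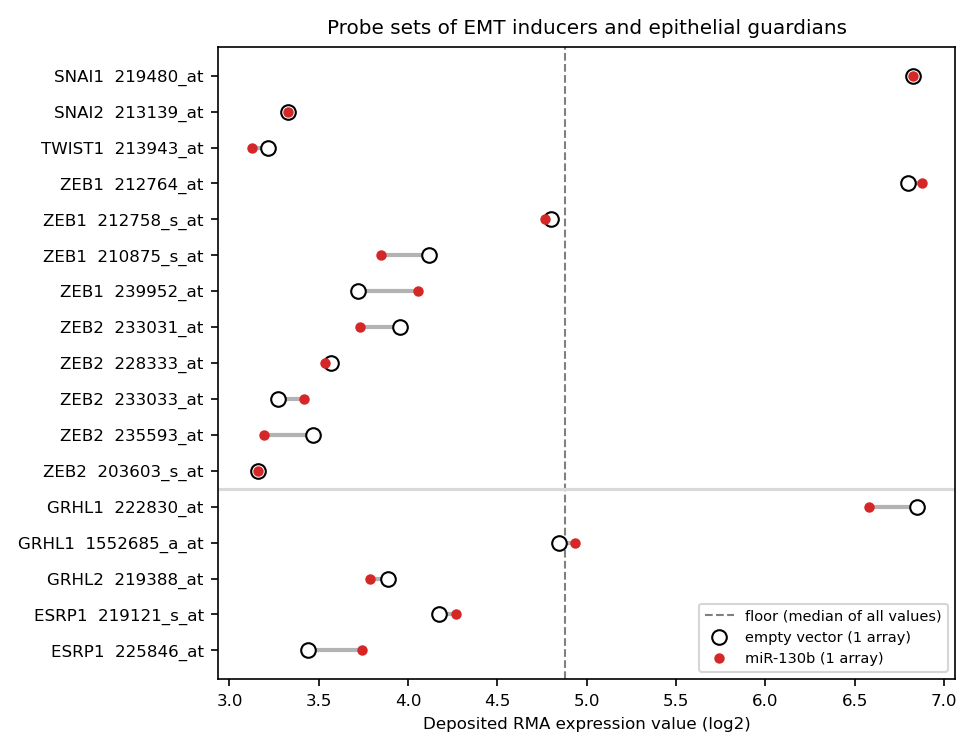
Deposited log2 expression value (horizontal axis) of each of the 17 probe sets with the empty vector (open circles) and with miR-130b (filled red circles), with EMT inducers above the grey line and epithelial guardians under it. The dashed line is the floor of 4.88, and 13 of the 17 probe sets lie left of it in both arrays.

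Most of these genes gave little signal in PLC8024 cells. A probe set was counted as measured when its brighter array reached 4.88, the median of all values on the arrays. Only 4 of the 17 probe sets did so, and these belong to SNAI1, ZEB1 and GRHL1. SNAI2, TWIST1, ZEB2, GRHL2 and ESRP1 lay below that floor in both arrays with every probe set, at values from 3.12 to 4.27. At such values the remaining background compresses any fold, so a change in these 5 genes would be understated. Of 13260 measured genes in all, 2.68% were at least 1.5-fold lower and 0.294% at least 1.5-fold higher, against 0 of the 3 measured members in either direction. Probe sets differ in how well they bind, so the levels of different genes are not ranked.

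Among the inducers, SNAI1, the gene of Snail, was represented by 1 probe set, which stood at 6.83 with the empty vector and 6.83 with miR-130b. Its difference was exactly 0, well above the floor. SNAI2, the gene of Slug, stood at 3.33 in both arrays, also with no difference, but below the floor. TWIST1 stood at 3.22 with the empty vector and 3.12 with miR-130b, a difference of -0.09. All 3 genes thus rested on a single probe set each.

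ZEB1, the E-box-binding repressor of CDH1, had 4 probe sets, and the brightest stood at 6.80 with the empty vector and 6.87 with miR-130b. Its difference of 0.07 was smaller than 0.202, the pooled standard deviation of the difference between probe sets of the same gene. This spread was taken over the 6047 genes with 2 or more measured probe sets. That spread comes from the same 2 arrays, so it does not measure variation between replicate cultures. It is not purely technical either, since changes seen by only some probe sets of a gene enter it. The second probe set, just below the floor, stood at 4.80 and 4.77, a difference of -0.03. The remaining 2 ZEB1 probe sets pointed in opposite directions, with -0.27 in one and 0.33 in the other, both below the floor. The 4 probe sets therefore gave no common direction, and their mean difference was 0.03.

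ZEB2, the paralogue of ZEB1, was below the floor in all 5 of its probe sets, at 3.16 to 3.95. Of these, 3 were lower in the miR-130b array, 1 was higher and 1 was identical. Their differences ran from -0.27 to 0.15, with a median of -0.03. Over all 12 probe sets of the inducers the median was -0.02, with 6 lower, 3 higher and 3 identical.

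Among the guardians, GRHL1, a Grainyhead-like factor of surface epithelia, had the only measured probe set with a difference larger than the spread between probe sets. This probe set stood at 6.85 with the empty vector and 6.58 with miR-130b, which is 1.20-fold lower (-0.27). The other GRHL1 probe set stood at 4.85 and 4.93, a difference of 0.09, and reached the floor only in the miR-130b array. The probe sets of GRHL1 thus differed in sign, and their mean difference was -0.09.

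GRHL2, which activates CDH1 and claudin genes and represses ZEB1 in epithelial cells, stood at 3.89 with the empty vector and 3.79 with miR-130b. That difference of -0.10 lay below the floor. ESRP1, the epithelial splicing regulator, had 2 probe sets, both higher in the miR-130b array and both below the floor. The first stood at 4.17 and 4.27, a difference of 0.10, and the second at 3.44 and 3.74, a difference of 0.30. Over the 5 guardian probe sets, 2 were lower and 3 higher, with a median of 0.09.

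Each of the 17 differences lay inside the range that holds the central 95% of probe sets of like level. For the 23352 probe sets reaching the floor that range was -0.64 to 0.39, and for the 17739 below it -0.35 to 0.34. In size, 6 of the 17 exceeded the spread of 0.202, and 5 of these were below the floor. That spread was taken from measured probe sets only. The share of all probe sets beyond it was not computed, so the count of 6 has no background beside it and is not read as a result. The probe set of ZEB1 with 0.33 lay closest to the edge of its range.

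**Figure D2:**
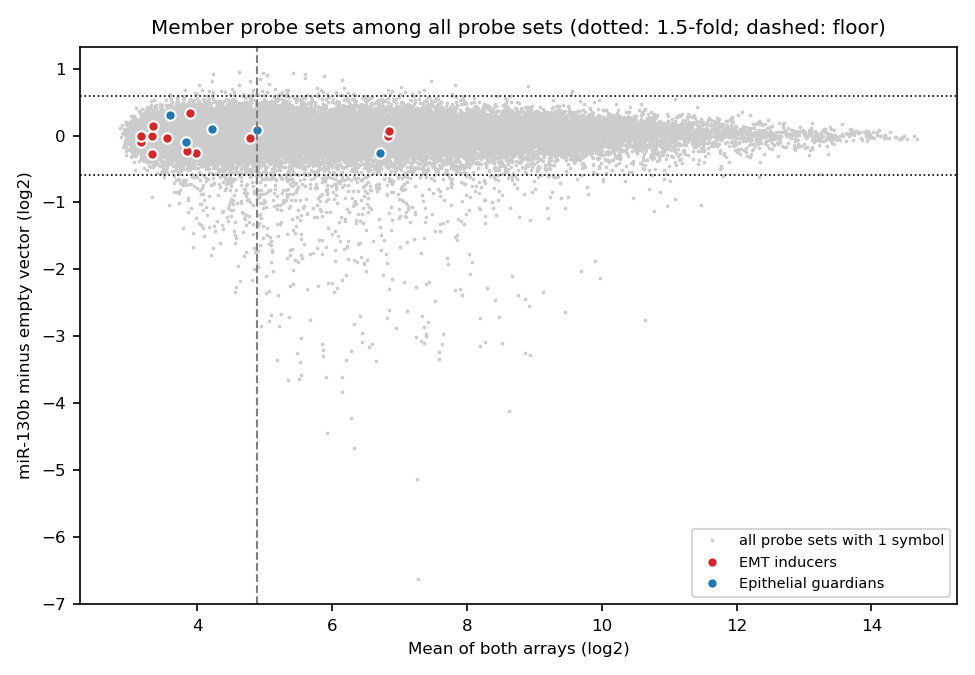
Difference miR-130b minus empty vector (vertical axis, log2) against the mean of both arrays (horizontal axis, log2) for all 41091 probe sets with 1 symbol in grey, the 12 of EMT inducers in red and the 5 of epithelial guardians in blue. All 17 coloured points lie between the dotted lines at 1.5-fold, while grey points extend far lower than higher.

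The labelled cell type was checked against markers. Of 19 hepatocyte and liver tumour line markers, 19 lay at or above the floor in both arrays, and their median difference was -0.05. Of these markers, 3 were at least 1.5-fold lower, 0 higher and 16 between. The 3 were TTR, the keratin gene KRT8 (-1.05) and the serum albumin gene ALB (-1.03). TTR, the thyroxine carrier gene, stood at 9.26 with the empty vector and 5.92 with miR-130b (-3.34). ALB differed by -2.38 and -1.56 in its other measured probe sets. All measured probe sets of KRT8 and ALB carry a suffix (_x_at or _s_at) that marks possible cross-hybridisation. PROM1, the gene of the sort marker CD133, stood at 9.19 in the empty vector array, above the floor although the cells are labelled CD133-, and at 6.07 in the miR-130b array. Of 12 fibroblast and stellate markers, 6 reached the floor with the empty vector and 7 with miR-130b. Their summed level was 9.38 and 8.79 on the log2 scale. Of the 7 measured, 1 was at least 1.5-fold lower, 0 were higher and 6 lay between. The lower one was COL1A2, at 7.98 with the empty vector and 4.90 with miR-130b. COL1A2 and several other markers of this list also belong to the mesenchymal list below. Of 9 endothelial markers, 2 reached the floor in each array and 7 lay below it, with a summed level of 9.06 and 9.21. The brightest of them was PECAM1, at 8.51 and 8.72. Of 9 leukocyte markers with a probe set, 3 reached the floor in each array and 6 lay below it (10.1 and 9.93). The brightest of these was LYZ, at 9.77 and 9.46. Its other measured probe set differed by -1.72 and reached the floor only with the empty vector. The 3′ to 5′ signal ratio of ACTB was 1.95 with the empty vector and 2.41 with miR-130b, and that of GAPDH was 1.37 and 1.52. The part of these values in the differences below was not tested.

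Of 28 listed mesenchymal genes that EMT factors are known to induce, directly or indirectly, 17 were measured and 10 lay below the floor. Of the 17, 9 were lower with miR-130b by 1.5-fold or more, 0 were higher and 8 lay between. The fibronectin gene FN1, at -0.20, was among the 8. Of all measured genes, 2.68% were lower and 0.294% higher by that size, which is the background for the lists below too. The median of the list was -0.80, against 0.03 for all measured genes. Of the 9, 3 reached the floor only with the empty vector, so the floor kept them through the array where they are high. SERPINE2, a protease inhibitor and one of these 3, stood at 7.71 and 4.10 (-3.61), and CDH2, the N-cadherin gene, at 8.88 and 5.91 (-2.97), with -1.77 in its other probe set. The intermediate filament gene VIM stood at 12.02 with the empty vector and 9.26 with miR-130b (-2.76). FSTL1, a secreted glycoprotein gene, stood at 7.23 and 5.07 (-2.16), the actin-binding gene TAGLN at 10.58 and 7.30 (-3.28) and the collagen gene COL1A2 at 7.98 and 4.90 (-3.08). TAGLN's probe sets disagreed, with -4.13 and -0.05 in the 2 others. Those of COL1A1, counted among the 8 through -0.08 in its brightest probe set, disagreed as well. Its 4 measured probe sets ran from -1.68 to 0.38, with 2 at least 1.5-fold lower. Of the 4, 2 reached the floor only with the empty vector. Without probe sets whose suffix marks possible cross-hybridisation (_x_at and _s_at), 4 genes of the list were lower (CDH2, SERPINE2, TGFBI and FSTL1) and the median was -0.60. It was -0.20 with no floor and -2.46 with the floor at the 75th percentile. CDH2, COL1A2, SERPINE2 and FSTL1 reached that higher floor, 6.98, only with the empty vector, so it favours lower values.

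Junction and polarity genes, which SNAI and ZEB factors repress and GRHL factors activate, were not higher as a group. Of 28 listed genes 25 were measured, 3 were at least 1.5-fold lower, 1 was higher and 21 lay between, with a median of -0.12. Of all measured genes, 2.68% were lower and 0.294% higher by that size. EPCAM, an epithelial adhesion molecule gene, stood at 5.25 with the empty vector and 4.09 with miR-130b (-1.16) in its only probe set, which reached the floor only with the empty vector. CDH1, the E-cadherin gene and the best known target of the inducers, stood at 6.98 and 6.16 (-0.82), and a second probe set below the floor differed by -0.03. CLDN6, a claudin gene of fetal epithelia, differed by -0.61, and by -2.28 in a dimmer probe set. The polarity gene PATJ, a reported ZEB1 target, was the one higher member, at 5.74 and 6.38 (0.65). Its other measured probe set differed by -0.025. Without the suffixed probe sets, which leaves out those of EPCAM and CDH1, 1 gene (CLDN6) was lower and 0 higher. CDH1 and CDH2 were both lower in the miR-130b array, by 1.77-fold and 7.84-fold.

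Genes that have been tied to GRHL and ESRP activity in epithelia overlapped with that list. Of 26 listed, 19 were measured, with a median of -0.10. Of the 19, 3 were at least 1.5-fold lower and 0 higher, against 2.68% and 0.294% of all measured genes. The 3 were EPCAM, CDH1 and MAL2, a gene of apical transport, which stood at 8.04 with the empty vector and 7.42 with miR-130b (-0.62). Without the suffixed probe sets MAL2 alone was left among them.

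**Figure D3:**
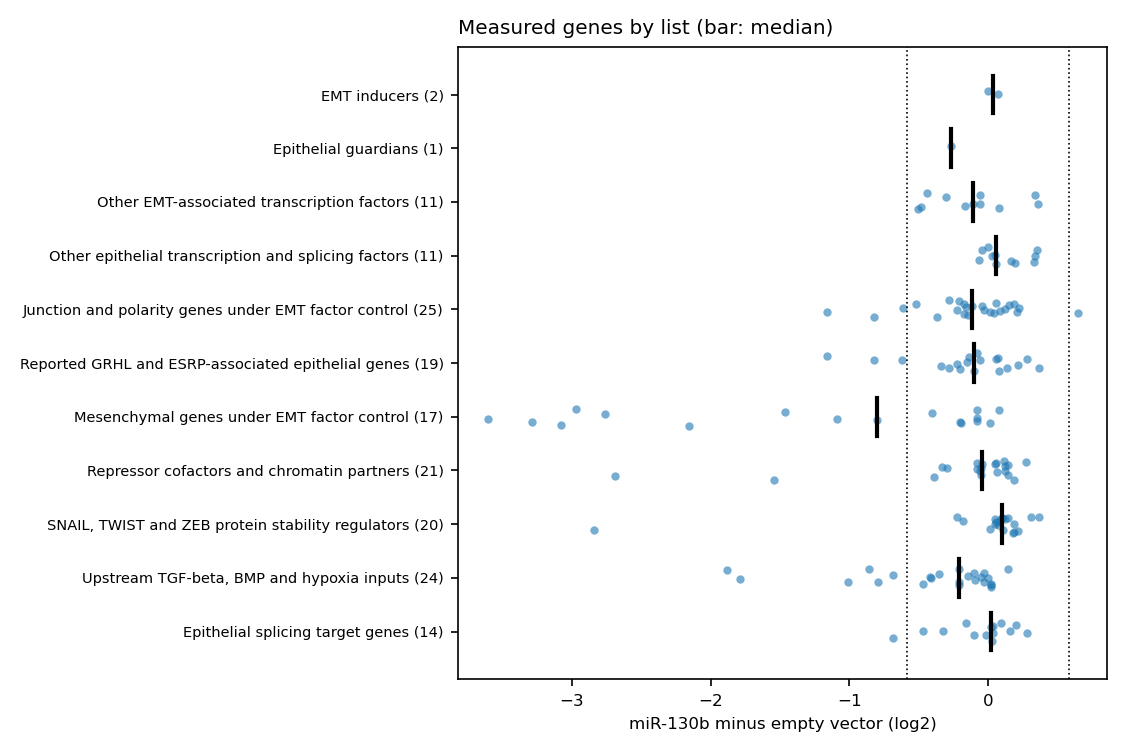
Difference miR-130b minus empty vector (horizontal axis, log2) of each measured gene (points) by list, with the number measured in parentheses, the list's median as a black bar and dotted lines at 1.5-fold. The mesenchymal list has its median at -0.80, while the medians of the other lists lie between -0.27 and 0.10.

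Other transcription factors associated with EMT or with the epithelial state stayed within 1.5-fold. Of 20 listed EMT-associated factors 11 were measured, 8 negative and 3 positive in sign, with a median of -0.11 and differences from -0.51 to 0.36. The genes named here were chosen after their values were seen. SOX4, a factor that acts upstream of EZH2 in EMT, stood at 11.18 with the empty vector and 10.68 with miR-130b (-0.51). All 4 of its measured probe sets were lower, and the dimmest of them differed by -0.89. In their mean SOX4 was at -0.61, the 1 factor past 1.5-fold under that setting. The chromatin factor gene HMGA2, which activates SNAI1 and TWIST1 in TGF-beta-driven EMT, stood at 8.66 and 8.18 (-0.49). TBX3 stood at 8.28 and 8.64 (0.36), but its measured probe sets differed in sign, with 0.16 and -0.22 in the others. Of 20 listed epithelial factors, among them the OVOL, KLF and ELF families, 11 were measured, with differences from -0.06 to 0.35 and a median of 0.06.

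Repressor cofactors and chromatin partners of the EMT factors mostly differed by less than 1.5-fold. Of 23 listed 21 were measured, with a median of -0.04, and 19 lay within 1.5-fold. The first exception was LOXL2, a lysyl oxidase-like enzyme that interacts with Snail, at 7.76 with the empty vector and 5.07 with miR-130b (-2.69). The decrease rested on 1 probe set, since the other measured LOXL2 probe set differed by -0.17 and the mean of both was -1.43. The second was SMARCA4, a chromatin remodelling ATPase and reported ZEB1 cofactor, at 7.99 and 6.45 (-1.54). All 7 of its measured probe sets were lower, 6 of them by 1.5-fold or more, while the other differed by only -0.03. Every measured probe set of LOXL2 and SMARCA4 carries a suffix, so neither gene was measured without the suffixed probe sets. No other cofactor was 1.5-fold lower in that setting.

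Regulators of Snail, Twist and ZEB protein stability or phosphorylation had a median of 0.10, with 20 of 22 measured and 19 within 1.5-fold. In sign, 17 were positive and 3 negative, where 7440 of all 13260 measured genes were positive. PRKD1, a kinase that phosphorylates Snail, was the exception, at 6.63 with the empty vector and 3.79 with miR-130b (-2.84), below the floor in the latter. Its other probe set, below the floor in both, differed by -0.20. Genes counted within 1.5-fold by their brightest probe set could pass it in a dimmer measured one. This held for GSK3B (0.07 in the brightest, -0.79 in another), FBXO11 (0.37 and 0.94) and FBXW7 (0.02 and 0.63).

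Among upstream inputs, 6 of 24 measured genes were lower by 1.5-fold or more and 0 were higher, against 2.68% and 0.294% of all measured genes. The median of the list was -0.21, against 0.03 for all measured genes, with 20 negative and 4 positive in sign. The Notch ligand gene JAG1 differed by -1.88 in its brightest probe set. Its 5 measured probe sets ran from -2.88 to -0.07, with 4 at least 1.5-fold lower. The hypoxia factor gene HIF1A differed by -0.68. The ligand genes TGFB2 and INHBA differed by -1.79 and -0.86, and both reached the floor only with the empty vector. BMPR2, a BMP receptor gene, had -0.80 for its brightest probe set, with -0.24, -0.04 and -0.59 for the other measured ones. TGFB1, a ligand that induces SNAI1 and ZEB1 in many epithelia, stood at 6.83 with the empty vector and 5.82 with miR-130b (-1.01), but its other probe set was at 4.94 in both. With the mean of measured probe sets BMPR2 was at -0.41 and TGFB1 at -0.51, which left 4 genes past 1.5-fold. Without the suffixed probe sets 3 of these genes were 1.5-fold lower (TGFB2, BMPR2 and HIF1A). JAG1 and INHBA had no measured probe set left in that setting, and TGFB1 was at 0. The receptor gene TGFBR2 differed by 0.02 and SMAD3, a transducer of TGF-beta, by -0.03.

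Genes whose splicing ESRP proteins direct, together with other splicing factors, were described by their probe sets, which do not resolve exon choice. Of 15 listed 14 were measured, 1 was at least 1.5-fold lower and 0 higher, with a median of 0.02. That gene was ENAH, an actin regulator, at 10.69 with the empty vector and 10.00 with miR-130b (-0.68), with 4 of 5 measured probe sets lower and the fifth, the dimmest, higher by 0.26. CD44, a cell adhesion receptor gene and ESRP1 target chosen here after its values were seen, had 13 probe sets. Its 4 measured ones differed by -0.47 in the brightest to -2.00 in another, but 3 of them reached the floor only with the empty vector, so the floor favours lower values among them. With the mean of measured probe sets CD44 was at -0.97 and ENAH at -0.52, so that CD44 and not ENAH was the 1 gene past 1.5-fold. FGFR2, the receptor gene whose epithelial exon ESRP1 and ESRP2 promote, likewise named after its values were seen, had 11 probe sets. Its 3 measured ones differed by -0.16, 0.04 and 0.22, with no common direction. Without the suffixed probe sets 3 genes of this list were 1.5-fold lower, ENAH, CD44 and the splicing factor gene MBNL1. With all probe sets MBNL1 differed by -0.32 in its brightest and by -0.55 in the mean of its 4 measured ones. Of these 4, 2 reached the floor only with the empty vector.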

How the data were processed

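The authors deposited log2 expression values of 54675 probe sets for both arrays. Per the submitters' processing notes they were made with RMA; its version and settings are not given here. Its values keep a residual background and compress low signals. Control probe sets were left out (54613 remained), and genes were named through GEO's platform annotation from probe sets with 1 symbol; 1801 had several and 11721 none. The Entrez identifiers of all 17 member probe sets matched the RefSeq table.

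For each probe set the empty vector value was subtracted from the miR-130b value. The measured probe set of highest mean stood for its gene. With 1 array per condition no test was run, and the number of arrays limits the precision. Genes were counted beyond 1.5-fold as a rule of size. The members and lists were chosen with earlier results of these data known. Named were all members, up to 6 genes of each related list past 1.5-fold, and CDH1, CDH2, VIM and EPCAM. Of the identity lists, ALB, PROM1 and up to 3 genes past 1.5-fold were named. Other genes named after their values were seen are marked, apart from TGFBI, TGFBR2, SMAD3, FN1, MBNL1, COL1A1, PECAM1, LYZ, GSK3B, FBXO11 and FBXW7. The code was tested on simulated data. The alternatives comprised dropping the floor, raising it to the 75th percentile (6.98), averaging a gene's probe sets, leaving out _x_at and _s_at probe sets, loess centring (span 0.3) and a 2-fold rule. Python 3.11.15, numpy 2.4.6, pandas 2.3.3, statsmodels 0.14.6 and matplotlib 3.10.9 were used.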

Additional observations from a re-analysis of the deposited data

How the results depend on the processing

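The count of 0 members beyond 1.5-fold, lower or higher, held under no floor (8 members), the mean of probe sets, no suffixed probe sets, loess centring and a 2-fold rule. With the floor at the 75th percentile no member was measured, so that setting gave no value for them. No paired analysis was possible because each condition has 1 array, and for the same reason no replicate could be left out. With the floor at the 75th percentile, 192 of all genes were lower by 1.5-fold or more and 16 were higher, 1 junction gene was lower and 0 higher, 1 gene of the GRHL and ESRP list, 0 stability regulators and 3 upstream inputs were lower, and the mesenchymal median was -2.46. That floor kept CDH2, COL1A2, SERPINE2 and FSTL1 through the empty vector array alone. With no floor the mesenchymal median was -0.20. With the mean of probe sets, 1 EMT-associated factor (SOX4) was lower, 0 junction genes were higher, 4 upstream inputs were lower, and the 1 lower splicing gene was CD44 in place of ENAH. Without the suffixed probe sets, 1 junction gene was lower and 0 higher, 1 gene of the GRHL and ESRP list, 4 mesenchymal genes (median -0.60), 0 cofactors, 3 upstream inputs and 3 splicing genes were lower, and PATJ reversed to -0.025. At 2-fold, 201 of all genes were lower and 0 higher, 1 junction gene was lower and 0 higher, and 1 gene of the GRHL and ESRP list, 3 upstream inputs and 0 splicing genes were lower. Fewer genes or probe sets are counted by construction in the floor, suffix and 2-fold settings. For the rest, the cause was not tested.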
